A study of Homo sapiens with 4 samples.

Results

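The 10 genes described here act in entry into mitosis, on the spindle, or on centrosomes and centrioles. They are kinases (AURKA, PLK1, PLK4, NEK2), the Aurora A activator TPX2, phosphatases (CDC25A, CDC25B, CDC25C) and inhibitory kinases (WEE1, PKMYT1). They were taken by gene symbol, and all 10 were found among the 23444 gene entries of the deposited count and FPKM tables and were among the 15293 genes with enough counts to be tested. RNA was sequenced from U87-MG, an established human glioblastoma line, in 4 libraries: 2 from cells with a control hairpin (shCON) and 2 from cells with a hairpin that lowers MAGED2 (shMAGED2). Every group is the same line with no other labelled treatment. The design text calls the knockdown stable, whereas the treatment protocol in the labels speaks of hairpins to ZDHHC15, transient transfection and harvest at 36 h. The labels name no hairpin sequence or clone. They also do not say whether the 2 libraries of a group are separate cultures. A p-value here measures the spread between libraries alone, which may be technical.

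Mitosis begins when the cyclin-dependent kinase CDK1, bound to a B-type cyclin, loses the inhibitory phosphates that WEE1 and PKMYT1 place on it. CDC25 phosphatases remove those phosphates. Aurora A, with its cofactor BORA, switches on PLK1, which in turn favours CDC25 and marks WEE1 for destruction, so that the switch feeds itself. TPX2 holds Aurora A in its active form on spindle microtubules, PLK4 starts the duplication of centrioles, and NEK2 helps to part the duplicated centrosomes. The mRNAs of most of these genes are scarce in resting cells and rise late in the cycle, under promoters that combine CCAAT boxes with a short element called CHR (cell cycle genes homology region), while CDC25A is known as a target of E2F factors.

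Stretches before start sites of 5 of the genes are shown because they hold letters of known cell cycle promoters within 120 bases of a start site and the mRNAs rose together; they were chosen after the matches were seen. The sequences are RefSeq's (GRCh38.p14), cover the 120 bases before a start site, and are written 5′ to 3′ on the strand of the gene. Capitals mark matches on either strand to CHR, searched as TTTGAA and as TTCGAA, to the CCAAT box, which reads ATTGG on the other strand, and to E2F letters, searched as TTTGGCGC, as TTTGCCGC, as TTTCGCGC and as TTTCCCGC. The searched motifs do not overlap one another in the stretches shown.
PLK1, chr16:23678769-23678888, plus strand: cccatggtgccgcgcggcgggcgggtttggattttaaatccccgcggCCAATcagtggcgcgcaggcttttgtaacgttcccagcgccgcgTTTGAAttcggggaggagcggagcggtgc
CDC25B, chr20:3796190-3796309, plus strand: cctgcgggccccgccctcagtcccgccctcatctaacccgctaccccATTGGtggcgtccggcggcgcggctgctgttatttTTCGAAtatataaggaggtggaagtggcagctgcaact
CDC25C, chr5:138331805-138331924, minus strand: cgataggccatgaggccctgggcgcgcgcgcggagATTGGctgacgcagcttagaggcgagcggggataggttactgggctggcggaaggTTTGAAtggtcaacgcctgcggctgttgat
CDC25A, chr3:48188418-48188537, minus strand: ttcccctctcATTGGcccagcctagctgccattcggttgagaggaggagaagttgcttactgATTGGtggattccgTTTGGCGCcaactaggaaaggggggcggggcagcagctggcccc
NEK2, chr1:211675622-211675741, minus strand: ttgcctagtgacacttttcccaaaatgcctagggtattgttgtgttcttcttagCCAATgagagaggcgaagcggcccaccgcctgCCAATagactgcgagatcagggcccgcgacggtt

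The PLK1, CDC25B and CDC25C stretches shared an order of CCAAT letters followed by CHR letters. In PLK1 the CHR letters began 29 bases before the start site and the CCAAT letters 73 bases before it. In CDC25B these distances were 38 and 73 bases, and in CDC25C they were 30 and 85 bases. CDC25A held CCAAT letters at 2 places and the E2F letters TTTGGCGC 44 bases before its start site, and NEK2 held CCAAT letters 66 and 34 bases before its own. The RefSeq table matched 6 of the 10 genes (PLK1, PLK4, NEK2, CDC25A, CDC25B and CDC25C) with 14 windows of 300 bases, from 250 before to 50 after a start site; several windows belong to 1 gene and some overlap. CHR letters stood in 5 of these 14 windows and in 16.4% of all 35116 windows of the table, CCAAT letters in 8 of 14 and in 34.6%, and E2F letters in 1 of 14 and in 3.31%. CHR and CCAAT letters stood together in 4 of 14 windows and in 6.38% of all. PLK4, which is not shown, held CHR letters only after a start site, from 38 to 43 bases, and CCAAT letters 86 bases before another start, so that it did not have the order seen in PLK1, CDC25B and CDC25C. The forkhead letters TAAACA stood in 0 of 14 windows and in 12.3% of all. The windows shown for CDC25B and CDC25C begin at downstream starts of genes with 4 windows each. The RNA data do not tell which start was used.

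The libraries held 28673774 to 36234336 counts, and 17001 to 17312 entries had at least 1 count. Levels are given as CPM, counts per 1 M of the TMM-scaled library total, and changes as log2 differences, shMAGED2 minus shCON, from edgeR's quasi-likelihood test with Benjamini-Hochberg adjustment over all 15293 genes and a threshold of 0.05. MAGED2 had 6090 and 5225 counts in shCON and 526 and 795 in shMAGED2, which left 11.2% of the control level (log2 change −3.16, SE 0.13; edgeR adjusted p = 0.000654), and ZDHHC15 had 0 counts in every library, where 3 counts would be 0.0817 to 0.102 CPM (counting error only). The share of counts from mitochondrially encoded genes was 3.92% and 3.90% in shCON and 10.1% and 4.87% in shMAGED2 replicates 1 and 2. Markers of the labelled cell type were mixed: VIM was abundant (mean 7751 CPM in shCON), whereas GFAP had 28 to 89 counts in a library, S100B 0 to 14 and SOX2 0 to 4. The other glial and neural markers moved in opposite directions: NES had 165 and 166 counts in shCON and 569 and 689 after knockdown (log2 change 1.88, SE 0.18; edgeR adjusted p = 0.002), and OLIG2 had 180 and 169 against 52 and 81 (−1.45, SE 0.27; edgeR adjusted p = 0.0158). The part of these changes in the results was not tested. Among markers of other cell types, the epithelial CDH1 had 0 counts throughout, EPCAM 11 to 21, KRT8 30 to 82 and KRT18 6 to 28. The leukocyte gene PTPRC had 0 to 30, the endothelial genes PECAM1 0 to 64 and CDH5 0 to 14. The neuronal genes RBFOX3 and SYP had 0 to 22 and 13 to 29. Those of these markers with enough counts to be tested did not pass.

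All 10 genes rose after MAGED2 knockdown. Each passed the test, and for each of them both shMAGED2 libraries lay above both shCON libraries, against 12.3% of all tested genes called higher (23.9% in either direction) and 33% with that ordering. Of the 10, 9 rose at least 2-fold, which 4.43% of tested genes did. Their median log2 change was 1.62, against 0.0028 over all tested genes, and the range ran from 0.95 (CDC25B) to 2.00 (PLK1). Summed over the genes, 304 and 308 CPM in shCON replicates 1 and 2 stood against 1060 and 936 in shMAGED2 replicates 1 and 2. In bulk RNA a larger share of cells in G2 or mitosis and more of these mRNAs in each cell cannot be told apart. The proliferation markers MKI67 and PCNA moved the same way, from 156 ± 7.87 to 682 ± 215 CPM and from 46.4 ± 1.43 to 101 ± 19.5 CPM (SD, n = 2 per group), and their part in the result was not tested.

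**Figure D1:**
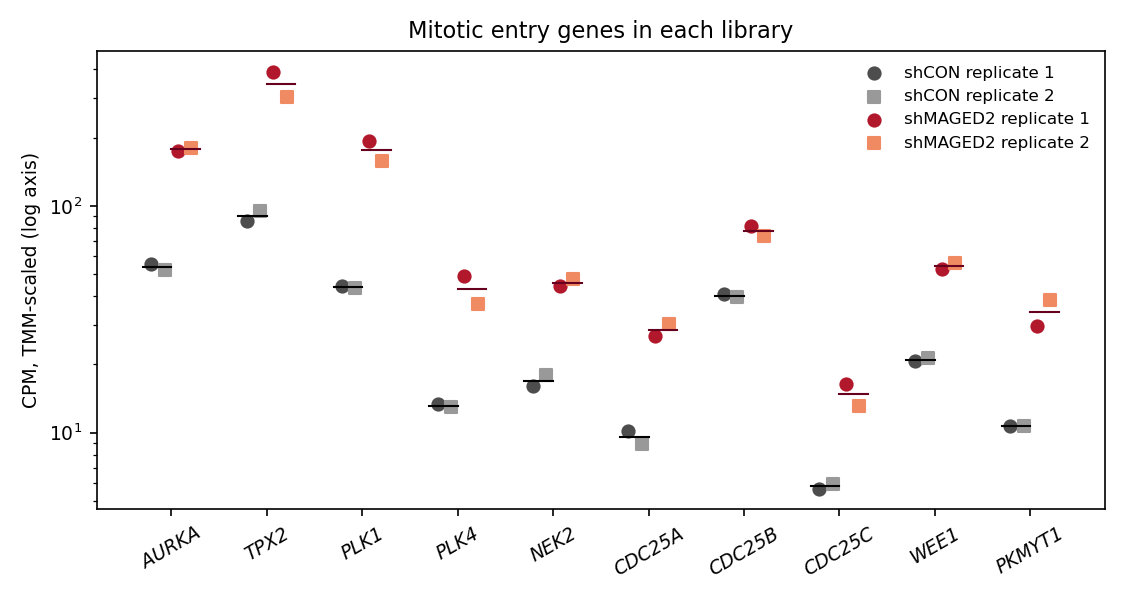
Level of each of the 10 genes in each library, in CPM scaled by TMM on a log axis; points are libraries (2 shCON, 2 shMAGED2) and lines are group means. For every gene both shMAGED2 points lie above both shCON points, with the widest gap between the groups for PLK1, whose lower shMAGED2 library was 3.57 times its higher shCON library.

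AURKA (ENSG00000087586, chromosome 20, 56369389 to 56392337, minus strand, hg38) encodes Aurora A, which matures centrosomes and builds the spindle. It had 1933 and 1537 counts in shCON and 5170 and 6633 in shMAGED2, or 55.4 and 52.4 CPM against 176 and 181 CPM. The libraries of a group lay close together and the groups far apart. Its log2 change of 1.72 had an SE of 0.10 (edgeR adjusted p = 0.00077), the smallest SE and the smallest p of the 10 genes.

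TPX2 (ENSG00000088325, chromosome 20, 31739271 to 31801805, plus strand), the microtubule-binding activator of Aurora A, had the highest counts. With the control hairpin there were 3008 and 2782, and after knockdown 11525 and 11074, or 86.2 and 94.9 CPM against 391 and 302 CPM. The shMAGED2 libraries were less alike than those of AURKA, but the lower of them was still 3.18 times the higher shCON library. TPX2 rose by 1.94 on the log2 scale (SE 0.15; edgeR adjusted p = 0.00118). Per length, AURKA and TPX2 stood at similar deposited FPKM, 27.8 and 26.5 against 24.2 and 26.6 in shCON, and 77.8 and 85.7 against 102 and 84.0 in shMAGED2. Both were the most abundant of the 10 in shCON replicates 1 and 2, and their order differed between replicates of each group, so that no order between them was resolved.

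PLK1 (ENSG00000166851, chromosome 16, 23677656 to 23690367, plus strand), the Polo-like kinase that drives entry into and passage through mitosis, showed the largest change. It had 1547 and 1273 counts in the control libraries and 5688 and 5810 after knockdown, which is 44.3 and 43.4 CPM against 193 and 158 CPM. The shCON libraries nearly coincided, and the mean rose 4.00-fold (log2 change 2.00, SE 0.13; edgeR adjusted p = 0.000831). Of the tested genes, 98.6% had a smaller log2 change. PLK1 overlaps the opposite-strand gene ERN2, which had 0 to 8 counts in a library.

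PLK4 (ENSG00000142731, chromosome 4, 127880861 to 127899195, plus strand), which starts centriole duplication, was expressed at a lower level. It had 469 and 379 counts in shCON and 1440 and 1361 in shMAGED2, or 13.4 and 12.9 CPM against 48.9 and 37.1 CPM. The shMAGED2 libraries differed from each other more than the shCON libraries did, with replicate 2 at 0.76 times replicate 1. The log2 change was 1.70 (SE 0.17; edgeR adjusted p = 0.00233).

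NEK2 (ENSG00000117650, chromosome 1, 211658657 to 211675630, minus strand), the kinase of centrosome separation, had 558 and 525 counts in shCON and 1300 and 1748 in shMAGED2. In CPM these were 16.0 and 17.9 in shCON against 44.1 and 47.6 in shMAGED2, with no overlap. NEK2 rose by 1.44 (SE 0.13; edgeR adjusted p = 0.00173). AURKA and NEK2 each have processed pseudogenes in GENCODE release 29 (AURKAP1, AURKAP2, NEK2P2 and NEK2P4) that have no row in the count table, and no source used here says how reads matching both a gene and its copy were counted.

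The 3 CDC25 phosphatases all rose. CDC25A (ENSG00000164045, chromosome 3, 48157146 to 48188402, minus strand), which acts at the start of S phase as well as at mitosis, had 355 and 262 counts in shCON and 783 and 1102 in shMAGED2. This was 10.2 and 8.93 CPM against 26.6 and 30.0 CPM (log2 change 1.57, SE 0.16; edgeR adjusted p = 0.00226). CDC25B (ENSG00000101224, chromosome 20, 3786772 to 3806121, plus strand), thought to start CDK1 activation at the centrosome, was the most abundant of the 3 and had the smallest change of the 10 genes. Its counts of 1431 and 1160 in shCON and 2407 and 2699 in shMAGED2 correspond to 41.0 and 39.6 CPM against 81.7 and 73.5 CPM, a 1.93-fold rise (log2 change 0.95, SE 0.11; edgeR adjusted p = 0.00363). All 4 values separated by group, the lower shMAGED2 library being 1.79 times the higher shCON library.

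CDC25C (ENSG00000158402, chromosome 5, 138285265 to 138338355, minus strand), a phosphatase of CDK1 that PLK1 acts on, had the fewest counts, 198 and 175 in shCON and 482 and 484 in shMAGED2. These are 5.67 and 5.97 CPM against 16.4 and 13.2 CPM. Its log2 change of 1.34 had the largest SE of the 10, 0.20 (edgeR adjusted p = 0.00732). CDC25C had deposited FPKM of 2.61 and 3.67 with the control hairpin and 8.59 and 6.34 after knockdown, so that FPKM per CPM ranged from 0.46 to 0.61 between libraries, a ratio of 1.34, against at most 1.17 for the other 9 genes. In a test on log2(FPKM + 1) without a filter on low FPKM, CDC25C did not pass (1.03; limma adjusted p = 0.0701). CDC25C overlaps FAM53C on the opposite strand, and without strand their reads cannot be told apart in the overlap; FAM53C had 2451 to 3298 counts in a library and a log2 change of 0.02 (SE 0.10; edgeR adjusted p = 0.892).

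The kinases that oppose CDC25 rose as well. WEE1 (ENSG00000166483, chromosome 11, 9573681 to 9593457, plus strand), the nuclear kinase that phosphorylates CDK1 on a tyrosine, had 722 and 625 counts in shCON and 1550 and 2048 in shMAGED2. In CPM this was 20.7 and 21.3 against 52.6 and 55.8, a tight separation (log2 change 1.37, SE 0.12; edgeR adjusted p = 0.00146). PKMYT1 (ENSG00000127564, chromosome 16, 2968024 to 2980539, minus strand), the related kinase held at the endoplasmic reticulum and Golgi membranes, had 375 and 313 counts in shCON and 870 and 1409 in shMAGED2. Its shCON libraries agreed at 10.7 and 10.7 CPM, while its shMAGED2 libraries, at 29.5 and 38.4 CPM, differed by a ratio of 1.30, the widest gap within a group among the 10 genes after PLK4. PKMYT1 rose by 1.67 (SE 0.17; edgeR adjusted p = 0.0025). It overlaps the opposite-strand gene PAQR4, which rose too (log2 change 1.02, SE 0.17; edgeR adjusted p = 0.0109), and part of the reads of either gene could belong to the other.

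Per length, the 10 genes kept a similar order of deposited FPKM in each library. In order of the shCON mean the most abundant were AURKA and TPX2, then PLK1 (19.6 and 19.3), CDC25B (11.7 and 11.9), NEK2 (7.44 and 8.42), WEE1 (7.25 and 8.19), PKMYT1 (4.99 and 5.46), PLK4 (3.44 and 3.31), CDC25C and CDC25A (2.77 and 2.45). Neighbours in that order overlapped for AURKA and TPX2, for NEK2 and WEE1, for PLK4 and CDC25C, and for CDC25C and CDC25A. In shMAGED2, TPX2, AURKA and PLK1 (79.2 and 69.6) formed an unresolved top group, each above at least 96.1% of all entries, where PLK1 had been above 84.1% and 83.9% in shCON. CDC25B (22.8 and 22.1), NEK2 (19.4 and 22.2), WEE1 (17.2 and 19.5) and PKMYT1 (14.3 and 20.8) followed without resolved steps between neighbours, and then PLK4 (11.6 and 9.42), CDC25A (6.92 and 8.43) and CDC25C. CDC25B and NEK2, which did not overlap in shCON, overlapped in shMAGED2.

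Ratios of FPKM within a library set pairs of these genes against each other, of which CDC25C to WEE1 pairs an activator of CDK1 with an inhibitor. The ratio of CDC25C to WEE1 was 0.36 and 0.45 in shCON and 0.50 and 0.32 in shMAGED2, so that the groups overlapped while both genes rose. WEE1 to PKMYT1 was 1.45 and 1.50 in shCON and 1.21 and 0.94 in shMAGED2, lower in both knockdown libraries by 0.47 on average on the log2 scale. From counts this difference was smaller, with ratios of CPM of 1.93 and 2.00 in shCON and 1.78 and 1.45 in shMAGED2 (log2 difference −0.29). PLK1 to PLK4 was 5.69 and 5.82 in shCON and 6.82 and 7.39 in shMAGED2, higher in both by 0.30 on the log2 scale. The ratios of CDC25B to CDC25C, CDC25A to CDC25C and AURKA to TPX2 overlapped between groups in FPKM. In CPM, CDC25B to CDC25C did not overlap, at 7.23 and 6.63 in shCON and 4.99 and 5.58 in shMAGED2 (log2 difference −0.39, against −0.33 in FPKM). With 2 libraries against 2, an exact two-sided permutation test cannot give a p below 0.333, so none of the 6 ratios could pass; the 2 that separated in FPKM reached that limit (adjusted over 6 ratios, 0.80).

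**Figure D2:**
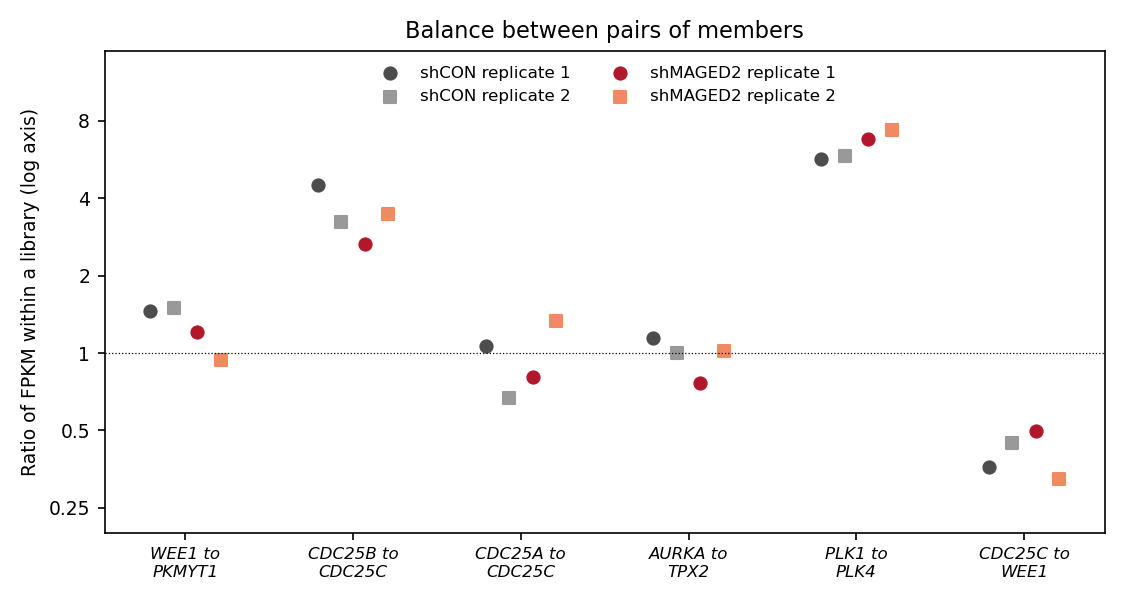
Ratio of deposited FPKM of 2 genes within each library, on a log axis with a dotted line at 1; points are the 2 shCON and 2 shMAGED2 libraries. Groups separate for WEE1 to PKMYT1 and for PLK1 to PLK4 and overlap for the other 4 ratios, among them CDC25C to WEE1.

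The 10 genes did not all differ in the same direction between the 2 knockdown libraries. TPX2, PLK1, PLK4, CDC25B and CDC25C were higher in shMAGED2 replicate 1, the library with 10.1% mitochondrial counts, with replicate 2 at 0.76 to 0.90 times replicate 1. AURKA, NEK2, CDC25A, WEE1 and PKMYT1 were higher in replicate 2, by ratios of 1.03 to 1.30. The corresponding ratios of shCON ran from 0.88 to 1.12. All of these lay within the middle 95% of 11233 genes averaging 5 CPM or more, which was 0.64 to 1.71 between the shMAGED2 libraries and 0.78 to 1.29 between the shCON libraries. The part of the mitochondrial share in these differences was not tested. The changes of the 10 genes were 0.87 to 1.85 without shMAGED2 replicate 1 and 1.02 to 2.14 without shMAGED2 replicate 2. With 1 knockdown library left, the spread in such a fit comes from the shCON libraries alone.

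Partners of the 10 genes moved with them. Of 26 genes that act with Aurora A, PLK1 and CDK1 in mitosis, 26 rose and 0 fell, with a median log2 change of 1.57. Over all tested genes 12.3% were called higher and 11.6% lower. The list was written with earlier results of these data known. In the lower direction 0 had an unadjusted p under 0.05, and DESeq2 and limma-voom also called 26 higher and 0 lower. On log2(FPKM + 1) without an FPKM filter, where 763 of 19231 tested genes were called higher, 19 of the 26 passed. Those with the smallest p were the cyclin CCNA2, from 44.5 ± 1.99 to 146 ± 4.40 CPM, the spindle protein FAM83D, from 24.7 ± 0.74 to 89.4 ± 4.81 CPM, the kinase MELK, from 35.9 ± 1.10 to 109 ± 0.20 CPM, and the checkpoint kinase BUB1, from 38.6 ± 2.81 to 138 ± 12.6 CPM (SD, n = 2 per group). The smaller changes in this list included those of BORA, MASTL, ARPP19, ENSA, CEP192 and CKAP5, picked out after their values were seen. CEP192 and CKAP5 rose by 0.78 and 0.94 (SE 0.12 and 0.12). BORA, the cofactor through which Aurora A activates PLK1, went from 12.2 ± 1.02 to 20.5 ± 1.78 CPM (log2 change 0.75, SE 0.16; edgeR adjusted p = 0.0223). MASTL, the kinase that restrains the phosphatase opposing CDK1, rose by 0.97 (SE 0.13; edgeR adjusted p = 0.00534), and its substrates ARPP19 and ENSA by 0.57 and 0.46 (SE 0.10 and 0.10). AURKB, the Aurora kinase of the chromosomal passenger complex, rose by 1.94 (SE 0.13; edgeR adjusted p = 0.000839). Fewer of the 26 passed without shCON replicate 1 or 2, and fewer genes passed over all genes.

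Of 12 genes that act with PLK4 on centrioles, 7 rose and 0 fell, with a median of 0.74. Over all tested genes 12.3% were called higher and 11.6% lower, so 0 falls among 12 is near the share over all genes. SASS6, which forms the cartwheel of a new centriole, went from 13.4 ± 0.39 to 30.2 ± 0.99 CPM and STIL, which PLK4 phosphorylates there, from 22.7 ± 1.89 to 61.1 ± 11.0 CPM (log2 changes 1.17 and 1.43, SE 0.13 and 0.16). CEP78 (1.04, SE 0.13) and CEP152 (0.90, SE 0.12), which recruits PLK4, also rose. No gene of this list had an unadjusted p under 0.05 in the lower direction (0 of 12), and DESeq2 and limma-voom called 7 higher and 0 lower as well. With 1 library left out, the number of rises in this list moved, as did the number over all genes.

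Of 21 tested genes that restrain, bind or degrade the 10, 9 rose and 2 fell, with a median of 0.29. Over all tested genes 12.3% were called higher and 11.6% lower, so the 2 falls are near the share over all genes. CDC20, which directs the anaphase-promoting complex and so the loss of mitotic proteins, went from 35.1 ± 1.41 to 117 ± 16.0 CPM (log2 change 1.74, SE 0.13), and CLSPN, the mediator of CHEK1 activation, from 12.3 ± 0.84 to 49.5 ± 6.71 CPM (2.01, SE 0.15). YWHAH and YWHAE, of the adaptor family that binds phosphorylated CDC25 proteins, rose by 1.10 (SE 0.12) and 0.53 (SE 0.10). CDC14B, a phosphatase, fell from 44.3 ± 7.02 to 26.9 ± 2.47 CPM (−0.72, SE 0.16), and the damage kinase ATM from 94.7 ± 6.91 to 69.3 ± 3.60 CPM (−0.45, SE 0.11). The adjusted p of these 6 genes in edgeR lay between 0.00114 and 0.0315. The number of calls in this list moved when 1 library was left out, as did the number over all genes.

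Other kinases of the Aurora, Polo-like, NEK and WEE families were listed for comparison. Of 15 listed, 12 were tested, of which 0 rose and 1 fell, with a median of −0.27, where 12.3% of all tested genes were called higher and 11.6% lower, so that counts this low are near the share over all genes; DESeq2 and limma-voom also called 0 higher and 1 lower, while 2 had an unadjusted p under 0.05 in the higher direction and 2 in the lower. PLK2, a stress-responsive Polo-like kinase, fell from 24.1 ± 0.14 to 13.5 ± 0.33 CPM (log2 change −0.83, SE 0.14; edgeR adjusted p = 0.0101). NEK1 (−0.44, SE 0.13), NEK6 (0.30, SE 0.10) and NEK10 (0.75, SE 0.28) had edgeR adjusted p-values of 0.0558, 0.0826 and 0.11 and did not pass. PLK5 and WEE2 had 0 counts in every library, NEK5 had 1 count in all, and AURKC had 3 to 20 counts in a library. Calls among these kinases also moved when 1 library was left out, as did calls over all genes. The difference between these kinases and the 10 genes was not tested as such.

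**Figure D3:**
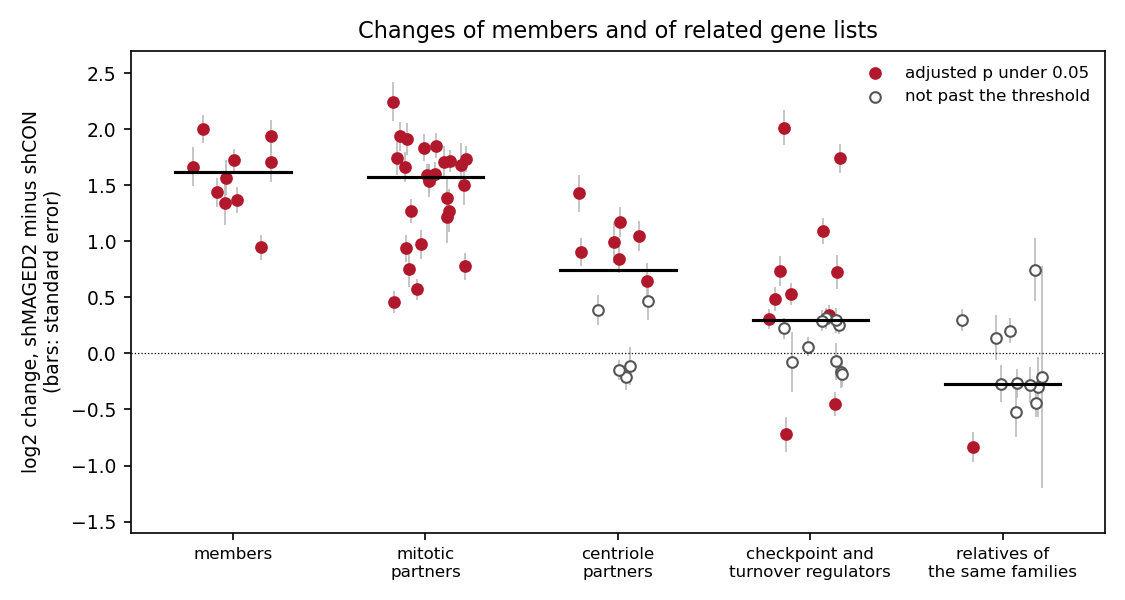
Log2 change (shMAGED2 minus shCON) of the tested genes of each list, with standard errors; filled points passed an adjusted p of 0.05, open points did not, and black lines are medians. All 10 members and all 26 mitotic partners lie above 0 and are filled, while among 12 relatives of the same kinase families 1 point is filled, below 0.

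The genes of the whole table whose profile over the 4 libraries lay closest to the median profile of the 10 were POLQ, TRIP13, ZWINT, MELK and PDSS1, at Euclidean distances of 0.071, 0.079, 0.084, 0.099 and 0.10 in centred log2 CPM, among 11223 candidates averaging 5 CPM or more. MELK is also among the mitotic partners. POLQ encodes a DNA polymerase of end joining, TRIP13 an ATPase of the spindle checkpoint, ZWINT a kinetochore protein and PDSS1 an enzyme of coenzyme Q synthesis. POLQ went from 14.3 ± 0.25 to 42.6 ± 0.26 CPM and PDSS1 from 6.45 ± 0.40 to 20.3 ± 0.20 CPM (SD, n = 2 per group). Of the 10 genes themselves, AURKA (0.15) and CDC25A (0.17) lay nearest to the median profile and CDC25B (0.66) farthest from it.

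**Figure D4:**
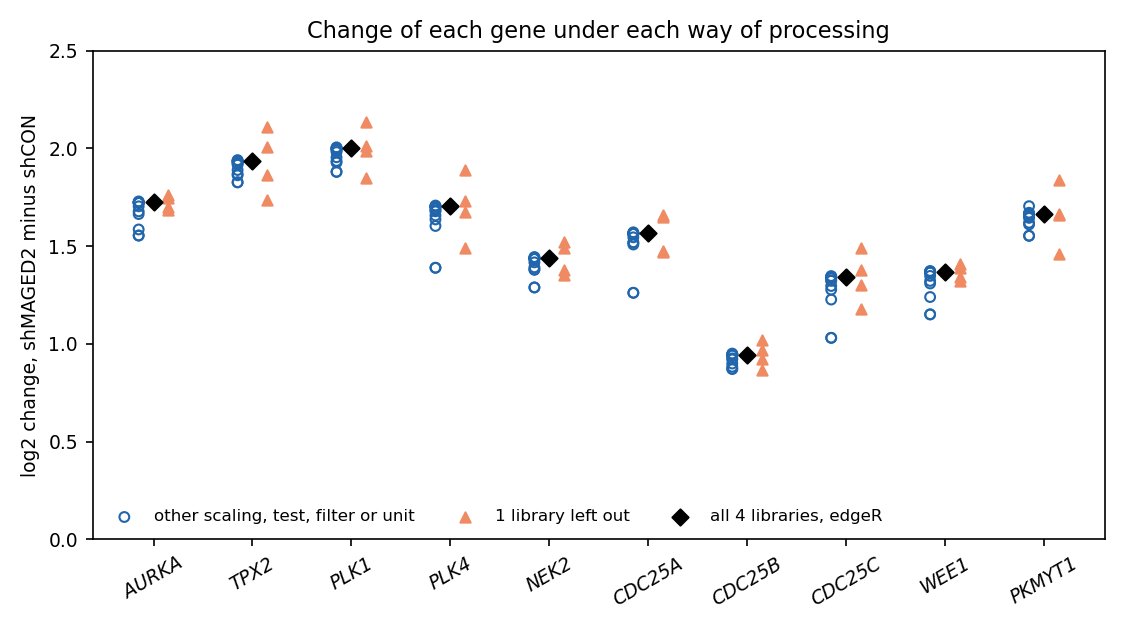
Log2 change of each of the 10 genes with all 4 libraries in edgeR (black), under other scalings, tests, filters or units (open circles) and with 1 library left out (triangles). Every point lies above 0.8, with CDC25B lowest and PLK1 or TPX2 highest, and the lowest circles of PLK4, CDC25A and CDC25C are the fits on log2(FPKM + 1).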

How the data were processed

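Counts per gene and library were deposited by the authors as whole numbers, not normalised, and FPKM values (fragments scaled by transcript length and library size) were deposited by the authors in a second table. HISAT2, StringTie and SAMtools on hg38 were used, per the submitters' processing notes. Not given in the sources used here are versions, annotation, gene lengths, the strand setting and how reads shared by genes were counted. Libraries were made with NEBNext Ultra RNA kits, per the labels' protocols. Columns were matched to samples by the sample descriptions and samples to groups by title.

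Counts were tested in edgeR 4.0.16 (R 4.3.3): filterByExpr by group, TMM, a robust quasi-likelihood fit with group as the only term, two-sided. Standard errors come from the F statistic. The members, the gene lists, the motifs and the rule for named genes (all members, up to 4 genes per list by p, list genes called against the majority, and 5 genes of like profile) were chosen with earlier results of these data known. Alternatives were 16 set in advance, among them DESeq2 1.42.0, limma 3.58.1 on voom values and on log2(FPKM + 1) or log2(FPKM + 0.1), whose changes understate those of low genes, and 1, without the mitochondrially encoded genes, chosen after seeing the data; gene-pair ratios were also taken from CPM, likewise chosen later. Coordinates are from GENCODE release 29 and promoter sequences from RefSeq. Scripts were tested on simulated counts. The design planned a description of protein sequences, which were not analysed here.

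Counts of the libraries within a group were farther apart than sampling alone gives. Chi-square over its degrees of freedom was 7.42 for shCON and 89.5 for shMAGED2. Each library was counted as 1 replicate, but this spread does not tell whether the libraries of a group are separate cultures.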

Additional observations from a re-analysis of the deposited data

How the results depend on the processing

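All 10 genes kept a positive change in each of 17 alternatives, and all 10 passed in 16 of them; the exception was CDC25C on log2(FPKM + 1) without an FPKM filter (1.03, limma adjusted p = 0.0701). Of all tested genes, 1244 rose on log2(FPKM + 0.1), and 763 rose and 877 fell on log2(FPKM + 1) without the filter. The regulators that restrain, bind or degrade the 10 were also counted in these 2 fits and on filtered log2(FPKM + 1). They gave 4, 3 and 4 rises in the order log2(FPKM + 0.1), unfiltered and filtered, and 1, 0 and 1 falls. Centriole partners gave 3 rises in the unfiltered fit. Among relatives of the same families 2 fell with upper-quartile factors, with no count filter and with a filter of 5 CPM. Leaving out 1 library moved the rises over all genes from 1874 to between 567 and 3725 and the falls from 1775 to between 533 and 3722. It moved centriole partners to 3 to 9 rises and 0 to 1 falls, restraining regulators to 3 to 15 rises and 0 to 4 falls, and relatives to 0 to 2 rises and 0 to 4 falls; such a fit gives the single library left in a group the spread of the other group. With the replicate number as a block, all 10 genes passed (0.94 to 1.99), and 1706 genes rose and 1630 fell. Of the regulators that restrain, bind or degrade the 10, 7 rose in that fit. Deviations of same-numbered libraries from their group means had a correlation of −0.018, so they shared no visible shift in expression. This value cannot tell whether same-numbered libraries were made together, which the labels do not say. Under upper-quartile factors 1655 genes rose and 2008 fell, against 1874 and 1775. Ratios of CPM in place of FPKM were chosen after seeing the data. In them the log2 difference of WEE1 to PKMYT1 was −0.29 against −0.47, and the other 5 ratios moved by less than this one. CDC25B to CDC25C, at −0.39 against −0.33, overlapped between groups in FPKM but not in CPM. CDC25C, with 175 to 484 counts in a library, had the fewest counts and the largest SE of the 10 genes. The cause of these shifts was not tested.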
